A study of Mus musculus with 8 samples.

Results

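Scarb1, Tspo, Por and Fdxr are genes of cholesterol uptake and of the electron supply of steroid synthesis. They were taken by name, through a table that pairs Ensembl gene IDs with symbols, and all 4 were rows of the count table, 4 of 12404 genes. All 4 passed the filter on low counts and were among the 8645 genes tested. The study exposed TM3 cells, an established line of mouse Leydig cells, to bisphenol A (BPA), a building block of plastics with estrogen-like activity, and set them against normal TM3 cells. RNA of each condition was sequenced directly (RNA-seq) and after pull-down with an antibody against N6-methyladenosine (m6A), a methyl mark on mRNA (MeRIP-seq). There were 2 BPA RNA-seq libraries, 2 normal RNA-seq libraries, 2 BPA MeRIP libraries and 2 normal MeRIP libraries, and the RNA-seq libraries were also the input of the MeRIP-seq. The labels used here give no dose, no exposure time and no treatment of the normal cells, and they do not say whether libraries 1 and 2 came from separate cultures. The p-values thus speak only of how far these libraries differ, and that spread may be technical.

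Leydig cells make testosterone from cholesterol. Cholesterol enters the cell from lipoproteins, is stored as ester or passed to mitochondria, and is cut there to pregnenolone by a mitochondrial P450 enzyme; further steps follow in the endoplasmic reticulum. P450 enzymes need electrons from NADPH. In mitochondria these pass through ferredoxin reductase (Fdxr) and ferredoxin, and in the endoplasmic reticulum through cytochrome P450 reductase (Por). Scarb1 encodes the receptor that takes cholesteryl ester from high-density lipoprotein, and Tspo encodes a cholesterol-binding protein of the outer mitochondrial membrane whose need in steroid synthesis has been disputed.

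The count table held 8813870 and 6305121 reads in BPA libraries 1 and 2, and 10455643 and 7517482 reads in normal libraries 1 and 2. The BPA pair was the less even one, with a Spearman correlation across genes of 0.549 against 0.741 for the normal pair. BPA reads also lay in fewer genes. The median gene had 15 and 2 reads in BPA libraries 1 and 2 against 233 and 150 in normal libraries. Genes at 0 reads numbered 4086 and 4676 in BPA against 2877 and 2207 in normal libraries. The part of this in the levels of the 4 genes was not tested. In 30.8% of tested genes with a symbol, 1 BPA library had fewer than 10 reads and the other at least 100, a split that none of the 4 genes showed. The normal pair was split in this way in 694 of the 8605 tested genes with a symbol. The label of a Leydig cell was checked against 11 markers, of which Inha alone was a row, with 0 and 0 reads in BPA libraries against 0 and 49 in normal libraries. The other 10, with Star, Cyp11a1, Cyp17a1, Hsd3b1, Lhcgr and Nr5a1 among them, were not rows of the table and are not analysed here. Markers of stromal progenitor cells summed to 1928 and 1458 CPM (counts-per-million) in BPA libraries against 2073 and 1793 in normal libraries. Of the 7, Thy1, Tcf21 and Ly6a were not rows. Pdgfrb had 0 and 0 reads in BPA libraries against 208 and 79 in normal libraries, at least 80.5-fold lower against a floor of 3 reads over the BPA group. The groups overlapped for the rest. Vim had 1104 and 813 CPM in BPA against 1618 and 1078 in normal libraries. Pdgfra had 300 and 463 CPM against 231 and 380, and Nr2f2 had 543 and 195 against 241 and 359.

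Scarb1, Tspo and Por had a higher CPM in both BPA libraries than in both normal libraries, and Fdxr had a lower one, except with DESeq2's size factors, where its groups overlapped. None of these differences passed the test. With edgeR (quasi-likelihood F test, p adjusted over all tested genes by Benjamini-Hochberg), 0 of the 4 genes and 0% of the 8645 tested genes had an adjusted p under 0.05, and the smallest was 0.372. In fits without 1 library, edgeR called 234 genes without BPA library 1, 229 without BPA library 2, with Scarb1 among them, 1 without normal library 1 and 0 without normal library 2. An unadjusted p under 0.05 was reached by 0 of the 4 genes and 9.64% of all tested genes. DESeq2 called 0 of the 4 genes and 3.24% of the 8142 genes to which it gave an adjusted p. The BPA pair lay wholly above the normal pair in 12.8% of tested genes and wholly below it in 27.2%, so the order seen in Fdxr alone was common in the table. The 4 genes were chosen with results of these libraries known, and the order of their libraries is a description. With 2 libraries against 2, an exact two-sided permutation test of a single gene cannot go below p = 0.333.

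**Figure D1:**
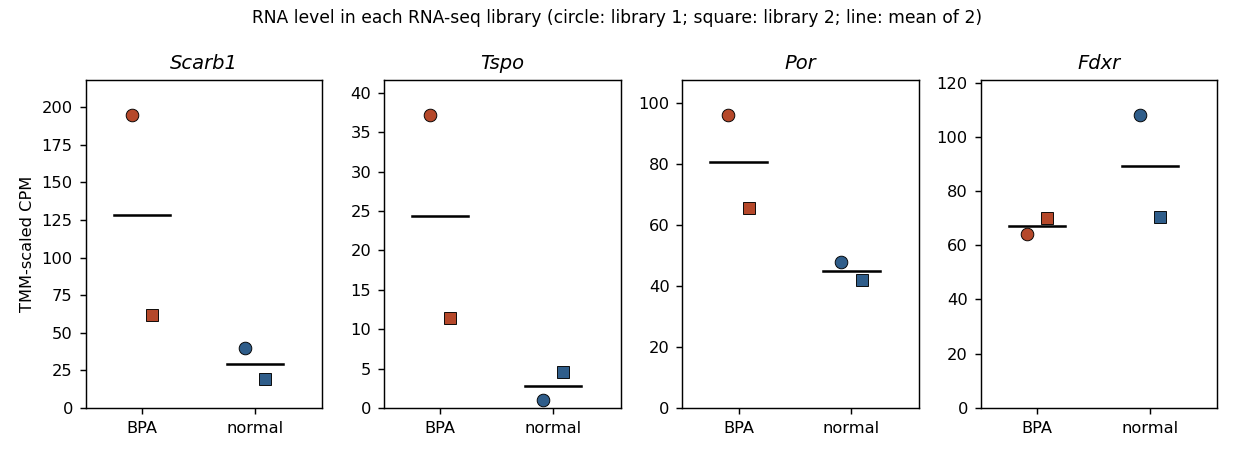
RNA level of Scarb1, Tspo, Por and Fdxr in each RNA-seq library, in CPM scaled by TMM (vertical axes start at 0), with BPA left of normal, library 1 as a circle, library 2 as a square and a line at the mean of 2. Both BPA points lie above both normal points for Scarb1, Tspo and Por, and the Fdxr level of BPA library 2 (70.1) is next to that of normal library 2 (70.4).

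Scarb1 (ENSMUSG00000037936), the uptake receptor, had 1677 and 331 reads in BPA libraries 1 and 2, against 458 and 150 reads in normal libraries 1 and 2. Scaled to the library size with TMM factors, which assume that most genes do not change, this was 195 and 61.9 CPM in BPA against 39.7 and 19.2 CPM in normal cells. Every BPA value exceeded every normal value, but BPA library 1 stood 3.15-fold above BPA library 2, while BPA library 2 stood 1.56-fold above normal library 1. Scaled to the library total without TMM factors, BPA library 2 had 52.5 CPM (exact 95% binomial interval 47.0 to 58.5). Normal library 1 had 43.8 CPM (39.9 to 48.0). The order held, but these intervals, which hold counting error alone, overlapped. Scarb1 averaged 128 ± 94.1 CPM in BPA and 29.5 ± 14.5 CPM in normal cells (SD, n = 2 each). The log2 fold change was 2.13 ± 1.10 (SE), with a 95% interval from -0.24 to 4.51 and an adjusted p of 0.382 by edgeR. It was larger than that of 93.1% of the tested genes. One library decided the call. Without BPA library 2 the log2 fold change was 2.68 with an adjusted p of 0.0432 by edgeR, a fit that assumes the lone BPA library varies like the normal pair, and without BPA library 1 it was 1.01 with an adjusted p of 0.553.

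Tspo (ENSMUSG00000041736), the outer membrane cholesterol-binding protein, was the least covered of the 4 genes. It had 320 and 61 reads in BPA libraries 1 and 2, against 12 and 36 reads in normal libraries 1 and 2. In CPM the values were 37.2 and 11.4 in BPA against 1.04 and 4.62 in normal cells. The groups did not overlap, and the lower BPA value was 2.47-fold above the higher normal value. For that pair the reads divided by the library total were 9.67 per 1e6 reads in BPA library 2 (exact 95% binomial interval 7.40 to 12.4). In normal library 2 the value was 4.79 (3.35 to 6.63), and both intervals hold counting error alone. Tspo averaged 24.3 ± 18.2 CPM in BPA and 2.83 ± 2.53 CPM in normal cells (SD, n = 2 each). The log2 fold change of 3.42 ± 1.86 (SE) was the largest of the 4 and exceeded that of 98.0% of the tested genes, but its 95% interval ran from -0.56 to 7.40 and its adjusted p was 0.404 by edgeR. Leaving out 1 library at a time moved it between 2.18 (without BPA library 1) and 4.75 (without normal library 2), with adjusted p-values between 0.278 and 1.00 by edgeR.

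Fdxr (ENSMUSG00000018861), the mitochondrial reductase, had 553 and 375 reads in BPA libraries 1 and 2, against 1247 and 549 reads in normal libraries 1 and 2. The levels were 64.3 and 70.1 CPM in BPA against 108 and 70.4 CPM in normal cells. Normal library 1 thus stood alone, and the other 3 values lay between 64.3 and 70.4 CPM. Fdxr averaged 67.2 ± 4.12 CPM in BPA and 89.2 ± 26.6 CPM in normal cells (SD, n = 2 each). The log2 fold change was -0.45 ± 1.00 (SE), with a 95% interval from -2.61 to 1.71 and an adjusted p of 0.896 by edgeR. Without normal library 1 it was 0.00057, so the lower level in BPA rested on that library. When DESeq2's size factors replaced TMM, the groups overlapped, at 486 and 513 normalised reads in BPA against 739 and 471 in normal cells.

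Por (ENSMUSG00000005514), the microsomal reductase, had 827 and 350 reads in BPA libraries 1 and 2, against 554 and 327 reads in normal libraries 1 and 2. The levels were 96.1 and 65.4 CPM in BPA against 48.0 and 41.9 CPM in normal cells. The groups did not overlap, and the normal pair was close, differing by 1.14-fold where the BPA pair differed by 1.47-fold. Scaled to the library total without TMM factors, BPA library 2 had 55.5 CPM (exact 95% binomial interval 49.8 to 61.6). Normal library 1 had 53.0 CPM (48.7 to 57.6). The order held, but these intervals, which hold counting error alone, overlapped. Por averaged 80.8 ± 21.7 CPM in BPA and 45.0 ± 4.29 CPM in normal cells (SD, n = 2 each). The log2 fold change was 0.87 ± 1.09 (SE), with a 95% interval from -1.48 to 3.22 and an adjusted p of 0.802 by edgeR, and without BPA library 1 it was 0.53. The reference table of GRCm38 lists Gm16061 and Gm40345 with spans that overlap Por, and Gm32701 with one that overlaps Scarb1; no source used here says whether counting used strand, so reads of such neighbours cannot be told apart from those of the gene.

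**Figure D2:**
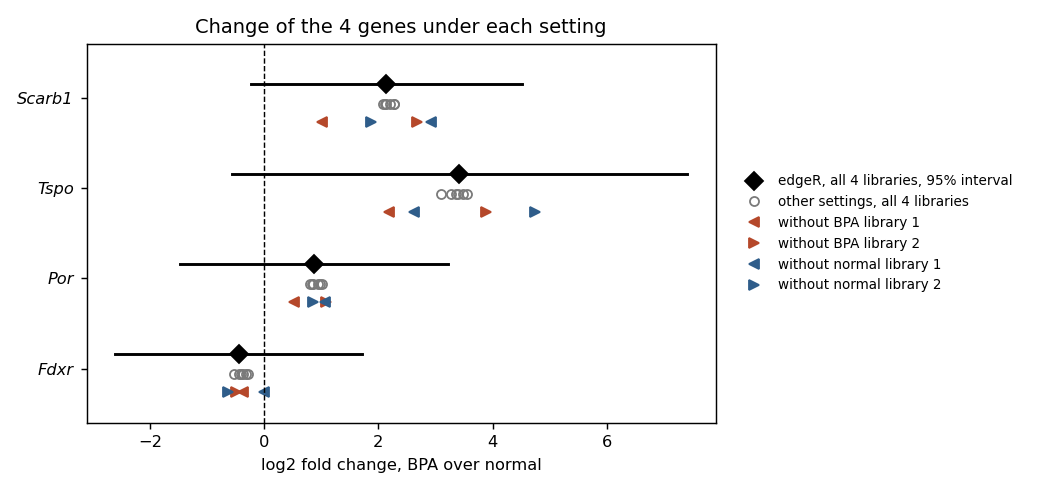
Log2 fold change of the 4 genes, BPA over normal. Diamonds with lines give the edgeR estimate and its 95% interval, open circles the 6 other settings over all 4 libraries, and triangles the fits without 1 library. All 4 intervals include 0, and the fits without a library spread from 1.01 to 2.92 for Scarb1 and from 2.18 to 4.75 for Tspo.

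The reads of the 4 genes can also be set against each other within a library, which needs no scaling between libraries. The Scarb1 to Fdxr ratio of reads was 3.03 and 0.883 in BPA libraries 1 and 2, against 0.367 and 0.273 in normal libraries 1 and 2. The Por to Fdxr ratio, the microsomal against the mitochondrial reductase, was 1.50 and 0.933 in BPA against 0.444 and 0.596 in normal cells. In both ratios the BPA values lay above the normal values, by 5.16-fold and 2.30-fold between geometric means. Tspo to Fdxr ratios were 0.579 and 0.163 in BPA against 0.00962 and 0.0656 in normal cells. The ratio of Tspo to Scarb1 was nearly equal in the BPA libraries, 0.191 and 0.184, but 0.0262 and 0.240 in normal cells, so the groups overlapped. Of the 6 ratios between the 4 genes, 5 did not overlap. The ratios over Fdxr could not overlap, since by library totals Scarb1, Tspo and Por lay above and Fdxr below in BPA. No share over other gene pairs was computed, so this count is a description. The ratios restate the same reads, share genes and libraries, and compare reads, not levels per length.

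**Figure D3:**
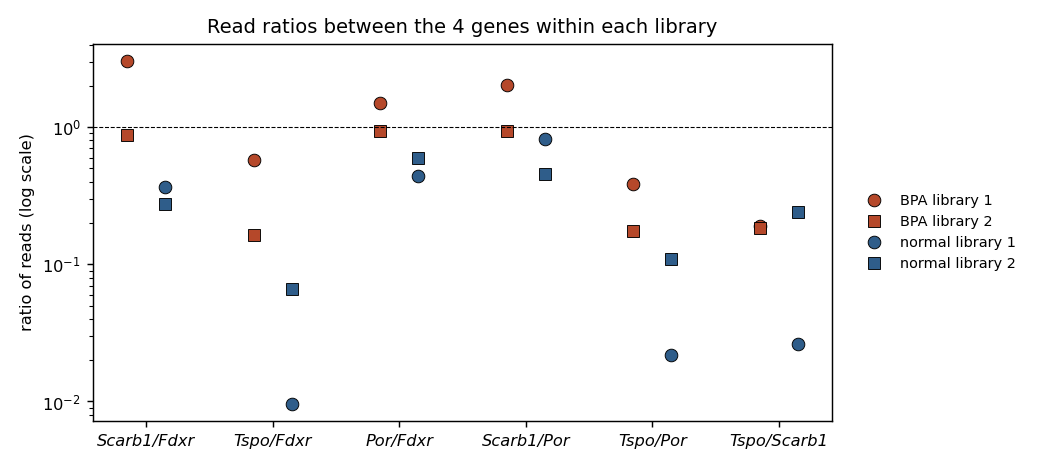
Ratio of reads for each pair of the 4 genes within each library, on a log axis, with BPA points left of normal points, circles for library 1 and squares for library 2. BPA points lie above normal points in every pair but Tspo/Scarb1, where the normal values of 0.0262 and 0.240 enclose the BPA values.

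The likeness of profiles was measured as the Euclidean distance between log2(CPM + 1) values centred on each gene's own mean over the 4 libraries. Scarb1 and Tspo were 1.89 apart, Scarb1 and Por 1.50, Por and Fdxr 1.31, and Tspo and Fdxr 3.61. Each of the 4 was compared with 7348 other tested genes that had a symbol and averaged 100 reads or more over the 4 libraries. The 3 nearest to Scarb1 were Elp3 at 0.26, Ufsp2 at 0.41 and Alg8 at 0.51. Elp3 had 159 and 41.9 CPM in BPA against 25.2 and 12.7 CPM in normal cells. The 3 nearest to Tspo were Klhl28 at 0.29, Fkbp14 at 0.59 and Nudt4 at 0.60. Few genes had such profiles, with 48 genes within a distance of 1 from Scarb1 and 18 from Tspo. The profiles of the reductases were common. Within the same distance there were 832 genes from Por, led by Rnf128, Vps4a and 1110004F10Rik, and 850 from Fdxr, led by Ddit3, Afdn and Ostc. A distance over 4 libraries is a description. The number of genes within a fixed distance also depends on how large a gene's differences are, and those of Scarb1 and Tspo were the larger ones.

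The other genes of these routes came from 9 lists with 134 genes, of which 95 were rows of the table and 83 were tested. edgeR called 0 of the 83 (5 in the fit without BPA library 1), with an unadjusted p under 0.05 in 3 with more and 3 with fewer reads in BPA. Over all tested genes the share was 9.64%, and of the 8605 with a symbol 206 had more and 621 fewer reads in BPA. The median log2 fold change of the 83 was -0.13, beside -0.02 over all tested genes with a symbol, and 48.2% of the 83 against 49.4% of all were positive. The BPA pair lay wholly above the normal pair in 10 of the 83 and wholly below it in 17, where the shares over all tested genes were 12.8% and 27.2%. In 28 of the 83 genes 1 BPA library had fewer than 10 reads and the other at least 100.

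Of the 22 tested genes of lipoprotein uptake and intracellular cholesterol transport, 0 were called, 7 had positive and 15 negative log2 fold changes, and the median was -0.37. Cav2, a caveolin of membrane pits, had 243 and 925 CPM in BPA against 134 and 211 CPM in normal cells, with a log2 fold change of 1.74 ± 0.68 (SE), an unadjusted p of 0.0234 and an adjusted p of 0.372 by edgeR. Its groups did not overlap. Npc2, which hands cholesterol out of lysosomes, had 217 and 169 CPM in BPA against 269 and 232 CPM in normal cells, with BPA below and a log2 fold change of -0.37 ± 0.64 (SE). Its partner Npc1 had 0 and 36 reads in BPA against 86 and 17 in normal cells. Soat1, which esterifies cholesterol for storage, had 105 and 336 CPM in BPA against 143 and 121 CPM in normal cells. Stard3, a cholesterol carrier of late endosomes, had 295 and 1 reads in BPA against 155 and 25 in normal cells. The last 3 genes overlapped between the groups.

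Among 14 tested partners of Tspo at the outer mitochondrial membrane, 0 were called, 8 had positive and 6 negative values, and the median was 0.07. Dbi encodes a small acyl-CoA binding protein that is also a ligand of Tspo. It had 90 and 1 reads in BPA against 1000 and 584 in normal cells, with both BPA libraries far below. Its log2 fold change was -3.65 ± 1.64 (SE) with an unadjusted p of 0.0411 and an adjusted p of 0.372 by edgeR, so ligand and receptor stood on opposite sides of 0 and neither was called. Acbd3, which binds Tspo and a regulatory subunit of protein kinase A, had 48.0 and 190 CPM in BPA against 24.6 and 28.6 CPM in normal cells, with BPA above and an adjusted p of 0.463 by edgeR. Vdac1, the anion channel next to Tspo, had 492 and 354 CPM in BPA against 544 and 685 CPM in normal cells, with BPA below and a log2 fold change of -0.52 ± 0.49 (SE).

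On the mitochondrial side, Fdx1 and Fdx2, the ferredoxins that take electrons from Fdxr, were not rows of the table, nor were Cyp11a1 and the 5 other listed mitochondrial P450 enzymes. The 4 tested genes of mitochondrial electron supply had a median of 0.89 with 0 calls. In 2 of the 4, 1 BPA library had fewer than 10 reads and the other at least 100. On the microsomal side, 13 genes were tested, with 5 positive and 8 negative values and a median of -0.40; edgeR called 0 and DESeq2 called 1, Hmox2. Hmox2 encodes the constitutive heme oxygenase, which takes electrons from Por. It had 0 and 1 reads in BPA against 658 and 273 in normal cells, and the ratio of reads scaled to the library totals was 0.00128, with an exact 95% counting interval from 3.23e-05 to 0.00713. G6pdx, the first enzyme of the pentose phosphate route to NADPH, had 0 and 0 reads in BPA against 167 and 228 in normal cells, at least 111-fold lower against a floor of 3 reads over the BPA group, with an adjusted p of 0.372 by edgeR and 0.177 by DESeq2; it was named after its values were seen. Hmox1, the inducible heme oxygenase, had 65.5 and 166 CPM in BPA against 84.8 and 121 CPM in normal cells, with a log2 fold change of 0.11 ± 0.91 (SE). Cyb5a, which passes electrons to P450 enzymes beside Por, had 63.1 and 33.5 CPM in BPA against 49.0 and 27.6 CPM in normal cells. Cyb5r3, the reductase of cytochrome b5, had 157 and 137 CPM in BPA against 195 and 155 CPM in normal cells. Hmox1, Cyb5a and Cyb5r3 overlapped between the groups.

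Of 8 tested P450 and other enzymes served by Por, 0 were called by edgeR, 5 had positive and 3 negative values, and the median was 0.16. Cyp20a1, a P450 with no settled substrate, had 0 and 0 reads in BPA against 965 and 335 in normal cells. Against a floor of 3 reads over the BPA group this is at least 365-fold lower after scaling to the library totals. DESeq2 called Cyp20a1 (adjusted p of 0.00365) and Hmox2 (adjusted p of 0.0363), where edgeR gave unadjusted p-values of 0.0325 and 0.0408 and an adjusted p of 0.372 for each. Cyp51, the P450 of cholesterol synthesis, had 407 and 805 CPM in BPA against 558 and 424 CPM in normal cells, and the groups overlapped. Sqle, the squalene epoxidase, which takes electrons from Por, had 319 and 167 CPM in BPA against 146 and 110 CPM in normal cells. Its BPA values lay above the normal values, with a log2 fold change of 0.95 ± 0.71 (SE) and an adjusted p of 0.617 by edgeR.

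The 6 tested genes of heme synthesis had a median of -0.83, the 5 of androgen synthesis -0.34 and the 11 of gonadotropin signalling and its transcription factors 0.59, with 0 calls in each. In 4 of the 6, 3 of the 5 and 2 of the 11, 1 BPA library had fewer than 10 reads and the other at least 100. That split held in 30.8% of all tested genes with a symbol. Hsd17b7, which acts in cholesterol synthesis and on estrone, had 13 and 1601 reads in BPA against 1 and 90 in normal cells, with a log2 fold change of 4.80 ± 1.98 (SE) and an unadjusted p of 0.0283 by edgeR. Library 2 exceeded library 1 in each group, and the groups overlapped. Cebpb, a transcription factor active on the Star promoter, had 1371 and 4112 reads in BPA against 0 and 735 in normal cells, with a log2 fold change of 3.46 ± 1.08 (SE) and an unadjusted p of 0.00684 by edgeR. The adjusted p of both was 0.372.

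**Figure D4:**
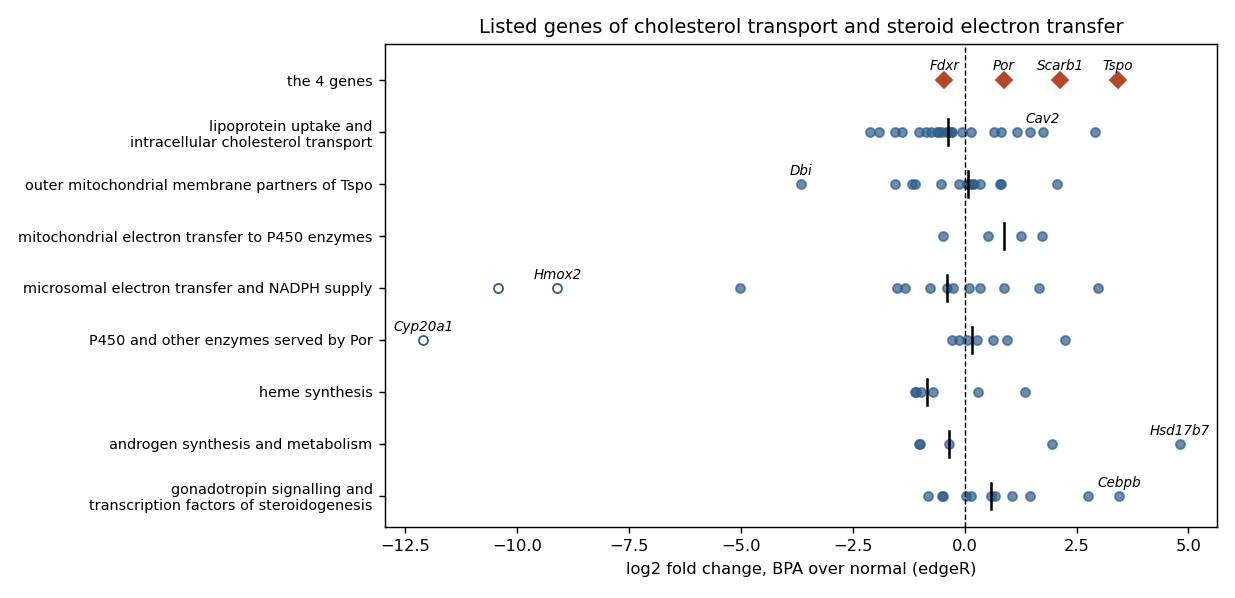
Log2 fold change by edgeR, BPA over normal, of the 4 genes (diamonds) and of the 83 tested genes of the lists (circles), with a line at each list's median. Names mark the 6 genes with an unadjusted p under 0.05, and open circles mark genes with at most 3 reads over both BPA libraries, whose fitted values are no bound. Medians lie between -0.83 and 0.89, and no circle passed the adjusted test.

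Markers of other cell types were followed beside these genes. Of 8 macrophage markers 2 were rows. Their summed level was 20.1 and 80.8 CPM in BPA libraries 1 and 2 against 10.7 and 7.43 CPM in normal libraries. The 2 markers went opposite ways. Cd68, a lysosomal membrane protein, had 174 and 436 reads in BPA against 0 and 59 in normal libraries. Lyz2 had 1 and 0 reads in BPA against 126 and 0 in normal libraries. Of 8 smooth muscle, peritubular and endothelial markers 3 were rows. Their sum was 57.7 and 235 CPM in BPA against 6.91 and 56.5 CPM in normal cells, most of it Acta2. The other rows were Des, with 3 and 0 reads in BPA against 0 and 0, and Tek, with 0 and 0 against 1 and 97. Sertoli cell markers summed to 278 and 134 CPM in BPA against 164 and 291 CPM in normal cells, and germ cell markers to 0 and 5.56 CPM in BPA against 0 and 0 CPM in normal cells. Adgre1, Csf1r, Ptprc, Myh11 and Pecam1 were not rows of the table. The macrophage and smooth muscle sums were highest in BPA library 2, and the Sertoli sum in normal library 2. Scarb1, Tspo and Por were highest in BPA library 1. In bulk RNA, fewer cells of a type and less RNA per cell cannot be told apart, and the part of these markers in the results was not tested.

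The m6A data were the authors' deposited table of 3331 differential peaks, with 1 pooled value per condition for the immunoprecipitated RNA (IP) and the input. Replicates cannot be compared there. Of the 4 genes, Por alone had a peak in this table, and Scarb1, Tspo and Fdxr had 0. All its peaks carried 2295 gene names, beside 12404 genes in the count table. Because only differential peaks are listed, a gene without one may still carry m6A. The Por peak was at chr5:135764010-135764159 on the plus strand, 150 bases in 1 block, with the build read as GRCm39. No annotation of that build was used here, so its exon is not given. In the authors' deposited table the peak had 91.3 RPM (reads-per-million) in BPA IP against 65.3 RPM in normal IP, and 0 RPM in BPA input against 68.7 RPM in normal input. The input of BPA cells was empty in this window, while both IP values were well filled.

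Recovered from the RPM steps, the values behind the Por peak were 357 reads in BPA IP against 353 in normal IP, and 0 reads in BPA input against 117 in normal input. The authors' deposited table gives a log2 fold change of 8.42 for enrichment in BPA over normal cells, with a p-value of 6.70e-09 and a false discovery rate of 1.36e-08. That value was higher than in 83.4% of the peaks. The IP to input ratio was at least 24.9 in BPA, against a floor of 3 reads (3.67 RPM) in the BPA input. In normal cells it was 0.952, so the BPA ratio was at least 26.2-fold higher. Over all peaks the RPM of a column summed to between 826089 (normal IP) and 894159 (BPA input). Each column was thus scaled to a total close to its peak reads. The ratios compare shares of such totals, not of whole libraries, and 0.952 does not tell whether the window was enriched in normal cells. With 1 RPM added to each value, the log2 difference of BPA over normal was 0.48 in the IP and -6.12 in the input. The IP difference was larger than in 56.3% of peaks and the input difference larger than in 11.7%.

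The empty BPA input window stands beside 1177 RNA-seq reads for the whole Por gene in the BPA libraries against 881 in the normal libraries. Such windows were not particular to Por. The BPA input was at 0 in 357 of the 3331 peaks (10.7%), and of the 342 of these whose gene was in the count table, 256 had at least 500 BPA reads over the gene. The BPA input held fewer than 20 reads in 53.8% of all peaks, against 11.3% for the normal input, and the totals behind the RPM scale were 818212 reads in the BPA input against 1703692 in the normal input. The part of this sparse input in the Por value was not tested.

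Peaks of the listed pathway genes numbered 46 in 28 genes. Some separate windows of 1 gene, in Hmox2 and in Lrp1, had the same values in every column. Whether such values are reads of the listed window alone was not tested. By the sign in the authors' deposited table, 32 of the 46 (69.6%) were higher in BPA, beside 68.8% of all peaks. The BPA input held fewer than 20 reads in 19 of the 46. Sqle had 13 such reads, at 15.9 RPM, and an authors' log2 fold change of 6.60. Hmox2, at 1 read in the BPA RNA-seq libraries, also had 1 read in the BPA input of each listed window, while the BPA IP held 407 reads. Gnas, the gene of a stimulatory G protein subunit, was named after its values were seen. It had 2 and 0 reads in the BPA libraries of the count table, against 82 and 0 in the normal libraries, whereas the BPA input of its 5 peaks held 469, 250, 592, 2 and 202 reads, so gene counts and window reads could differ widely.

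**Figure D5:**
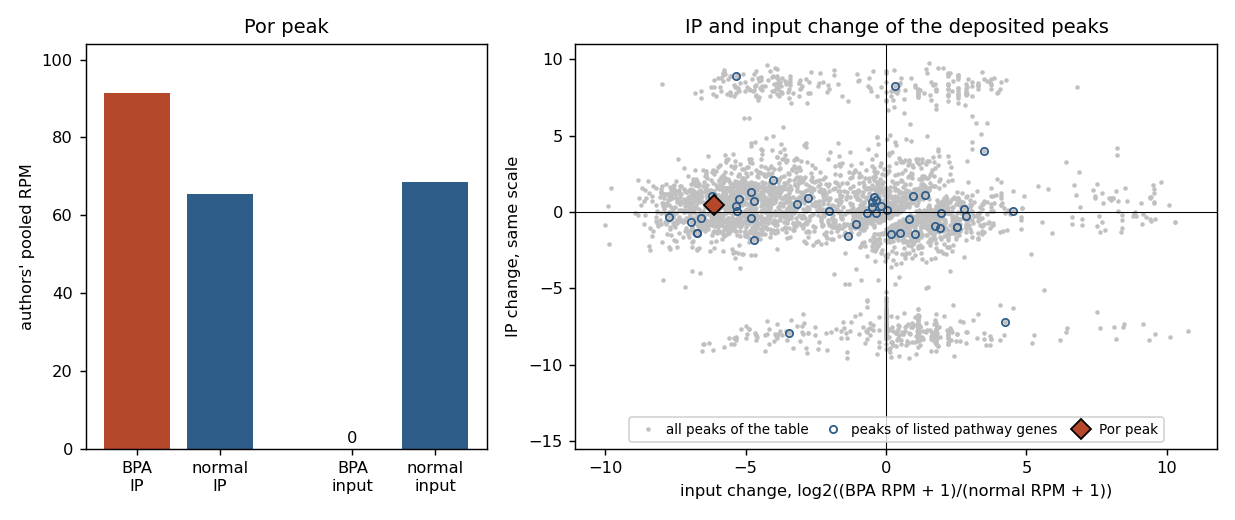
Left, the authors' pooled RPM of the Por peak in IP and input, BPA left of normal, with bars from 0 and no error because replicates were pooled. Right, IP change against input change of all 3331 peaks, each as log2 of BPA over normal with 1 RPM added; the Por peak (diamond) lies at -6.12 on the input axis and 0.48 on the IP axis.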

How the data were processed

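Per the labels' protocols, fragmented mRNA of TM3 cells was split into input and a part pulled down with an m6A kit. Read counts per Ensembl gene were deposited by the authors as whole numbers. The submitters' processing notes list the tools HISAT2 2.2.1, DESeq2 1.38.3, fastp 0.20.1 and featureCounts 2.0.1 and the builds GRCm39 and GRCh38. Count columns carry no assay in their names and were taken as RNA-seq; 0 per-sample columns were left unused. Of 12404 gene IDs, 98.9% had a symbol.

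For each peak the authors deposited RPM, pooled to 1 value per condition and assay. In each column 100% of values were whole multiples of a step within 0.1 read, so reads could be recovered. With 1 column a condition, no count test was run on them. The log2 fold change and the p-value and FDR of peaks are as the authors deposited them, by a test the sources do not name. In 1016 peaks with 100 or more reads in each column, that log2 fold change was 0.78 above the log2 ratio of RPM ratios. GRCm39 was inferred, as 11.3% of 3176 peaks fell in the GRCm38 span of their gene.

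The main test was edgeR 4.0.16 in R 4.3.3 with TMM, filterByExpr (minimum count 10, minimum total 15), robust dispersions, the quasi-likelihood F test, with p adjusted by Benjamini-Hochberg over 8645 genes and a threshold of 0.05. DESeq2 1.42.0 was an alternative. The script was tested on simulated data, with a pass condition only at a dispersion far below those fitted for the 4 genes. That check does not show how well changes are found at the spread of these libraries. Standard errors come from the F statistic. Binomial intervals and floors hold counting error alone, and reads with no molecular identifier may be copies of 1 molecule. The labels do not say that equal numbers mark a shared culture or day, so the numbers were not taken as pairs. A replicate block was an alternative. Deviations of same-numbered libraries correlated at 0.0041, which with 2 libraries per group cannot decide whether they were paired. Tables were joined in Python 3.11.15 with pandas 2.3.3.

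The members, lists and tests were chosen with earlier results of these data known. Named were the 4 genes, list genes with an unadjusted edgeR p under 0.05, a fixed set of list genes from each route (1 of them is not reported here), the 3 nearest profiles of each gene, and markers. The genes overlapping Por and Scarb1 came from the reference table.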

Additional observations from a re-analysis of the deposited data

How the results depend on the processing

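The 4 log2 fold changes kept their direction under all 10 alternatives, except Fdxr without normal library 1. Leaving out 1 library gave 1.01 to 2.92 for Scarb1 (adjusted p of 0.0432 without BPA library 2, its only call), 2.18 to 4.75 for Tspo, 0.53 to 1.09 for Por and -0.63 to 0.00057 for Fdxr; genes called ranged from 0 to 234 (234 without BPA library 1, 229 without BPA library 2) and listed pathway genes from 0 to 5. The 5, all without BPA library 1, were Cav2, Sp1, Prkacb, Hsd17b7 and Dhcr7, named after their values were seen. DESeq2 called 264 genes, 2 of them listed (Cyp20a1 and Hmox2). The replicate block left 0 calls, with 2.12 for Scarb1, 3.40 for Tspo, 0.86 for Por and -0.45 for Fdxr. DESeq2's size factors moved the median of all genes by 0.14, and relative to that median Scarb1 stood at 2.16, Tspo at 3.44, Por at 0.89 and Fdxr at -0.43, as with TMM. In other settings the median moved more: relative to it, Fdxr stood at 0.43 without BPA library 1 (median -0.80) and at -0.0062 with no filter on low counts (median -0.37). The legacy edgeR fit, chosen after seeing the data, called 0 genes. For Por, 1 peak remained at a false discovery rate of at most 0.01, and with 1 RPM added its change was 6.60 in place of 8.42; the ratio of ratios without it is undefined, since the BPA input is 0. The cause of these shifts was not tested.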
